A study of Homo sapiens with 18 samples.

Results

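Cadmium and zinc were set against each other in HEK293A cells in which LATS1 and LATS2 had been knocked out. The members are the 3 cadmium and the 3 zinc libraries of the knockout, 6 of the 18 RNA-seq libraries of the study, chosen by their labels, and all 19393 genes that passed the filter on low counts are described across them. HEK293A is an adherent line from human embryonic kidney. The cadmium group received CdCl2 at 50 uM and the zinc group ZnCl2 at 250 uM, each for 4 h, and water-treated knockout cells and wild-type cells under the same treatments serve for comparison. All groups of the main contrast carry the same double knockout, labelled LATS1/2-DKO. The study calls its 3 replicates per group biological. The labels do not say whether the knockout is 1 clone, which bases were changed or whether the replicates came from separate cultures. The spread behind the p-values was estimated within groups over all 18 libraries, wild type included. It is that between libraries and may be technical. Metal and dose differ together between the groups and cannot be told apart.

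The Hippo kinases LATS1 and LATS2 phosphorylate the coactivators YAP and TAZ and thereby hold them out of the nucleus. Zinc is an essential metal whose excess is sensed by the factor MTF1, which switches on metallothioneins and the exporter SLC30A1. Cadmium is a toxic metal that binds thiols and can enter the same sensing system, and it is also known to trigger heat shock, oxidative stress and amino acid stress programs, the last through the factor ATF4. Many immediate early genes, such as EGR1 and FOS, are switched on by MAP kinase signalling within minutes to hours.

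LATS1 lay at 50.97, 54.1 and 54.5 CPM in cadmium-treated knockout libraries and at 50.4, 48.4 and 48.5 CPM in zinc-treated ones, against 92.5 to 97.3 and 78.2 to 84.5 CPM in wild type under the same metals. CPM are counts of a gene per library, scaled to a common library size. LATS2 had 25.7, 23.8 and 25.5 CPM in cadmium-treated and 38.2, 35.99 and 40.4 CPM in zinc-treated knockout libraries, against 39.02 to 44.7 and 44.3 to 50.2 CPM in wild type, while in water it stood at 18.2 to 18.9 CPM in the knockout, against 16.2 to 16.5 CPM in wild type. RNA of both genes was therefore still counted in the libraries labelled knockout. Since the altered bases are not given, the RNA level checks the label only in part. The 6 metal libraries of the knockout held 25796202 to 36997417 counts. Of 6 tested markers of HEK293 cells, NEFL and CDH2 were called higher in cadmium and ENO2 lower, and all 7 listed summed to 469 to 479 CPM in cadmium and 442 to 458 CPM in zinc.

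Promoters of genes on which the results turn are shown first, as the 250 bases before the transcription start, 5′ to 3′ on the gene's strand, from RefSeq on GRCh38.p14. In the promoters of CHAC1 and ASNS, capitals mark the CARE letters TGATGNAA, searched on both strands, to which ATF4 is known to bind. CHAC1 lies at chr15:40953221-40953470 on the plus strand and ASNS at chr7:97872409-97872658 on the minus strand.

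CHAC1: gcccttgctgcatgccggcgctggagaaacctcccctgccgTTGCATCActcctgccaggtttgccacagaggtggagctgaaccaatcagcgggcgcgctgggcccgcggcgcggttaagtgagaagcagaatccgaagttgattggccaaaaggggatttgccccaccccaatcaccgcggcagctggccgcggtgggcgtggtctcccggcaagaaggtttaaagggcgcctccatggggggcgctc

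ASNS: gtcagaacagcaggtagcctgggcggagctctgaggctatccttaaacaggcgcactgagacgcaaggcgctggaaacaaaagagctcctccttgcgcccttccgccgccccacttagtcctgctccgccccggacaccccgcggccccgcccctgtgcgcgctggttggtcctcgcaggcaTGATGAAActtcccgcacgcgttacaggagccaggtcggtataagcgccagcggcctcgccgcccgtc

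The promoter of EGR1, at chr5:138465229-138465478 on the plus strand, holds 2 CArG boxes, the sites of serum response factor, which are shown in capitals.

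EGR1: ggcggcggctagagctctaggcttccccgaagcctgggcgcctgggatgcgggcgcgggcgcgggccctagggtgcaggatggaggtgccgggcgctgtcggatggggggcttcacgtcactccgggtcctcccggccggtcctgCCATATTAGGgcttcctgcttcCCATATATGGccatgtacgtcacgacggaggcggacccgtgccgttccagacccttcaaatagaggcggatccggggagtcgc

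In MT1X, at chr16:56682220-56682469 on the plus strand, and in SLC30A2, at chr1:26046119-26046368 on the minus strand, capitals mark the metal response element of MTF1, searched as TGCACNC or TGCGCNC on both strands. MT1X holds 4 of them and SLC30A2 holds 3, and both genes stood above water under both metals.

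MT1X: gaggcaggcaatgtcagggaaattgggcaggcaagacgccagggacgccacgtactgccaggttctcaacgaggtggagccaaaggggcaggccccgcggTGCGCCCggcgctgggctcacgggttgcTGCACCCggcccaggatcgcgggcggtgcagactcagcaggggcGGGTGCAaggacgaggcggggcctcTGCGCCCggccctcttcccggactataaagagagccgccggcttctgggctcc

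SLC30A2: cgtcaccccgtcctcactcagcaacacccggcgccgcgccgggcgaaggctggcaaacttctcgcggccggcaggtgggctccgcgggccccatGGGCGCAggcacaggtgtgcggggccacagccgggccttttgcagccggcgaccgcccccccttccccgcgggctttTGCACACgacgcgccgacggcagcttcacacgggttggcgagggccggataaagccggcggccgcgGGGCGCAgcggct

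These letters were searched in 300 bases, from 250 before to 50 after the start, and a match is a description only. The CARE letters stood in 11 of 161 promoters (6.83%) of genes called at least 2-fold higher in cadmium and in 5 of 289 (1.73%) of those at least 2-fold lower. The share was 1.79% of the 11690 protein-coding genes tested that had a promoter in the table and 3.62% of all 35116 promoters. CArG boxes stood in 3 of the 161 (1.86%) and 3 of the 289 (1.04%), where the share was 1.11% of the genes tested and 1.29% of all promoters. The metal response element stood in 51 of the 161 (31.7%) and 87 of the 289 (30.1%), where the share was 38.8% of the genes tested and 29.6% of all promoters.

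Cadmium-treated and zinc-treated knockout cells differed at many genes, most of them by little. DDIT4, STC2 and TRIB3, all known targets of the stress factor ATF4, had the highest log2 fold changes among genes eligible for naming. The early growth response genes EGR2 and EGR3 had the lowest. Eligible were called genes with a mean of at least 5 CPM and no overlap of the cadmium and zinc libraries. Clone, LINC and MIR names, antisense and similar suffixes and pseudogenes were left out. Of 19393 genes tested, 9348 (48.2%) passed an adjusted p of 0.05 in edgeR's quasi-likelihood test, 4645 of them (24%) higher and 4703 (24.3%) lower in cadmium. Counts of list members called between cadmium and zinc in the knockout are to be read against these 2 shares. A difference of at least 2-fold was seen at 530 genes (2.73%) higher and 717 (3.7%) lower. These counts became 93 and 149 when only genes with at least 5 CPM in at least 3 libraries were kept, so most of these genes had low counts. The median size of the log2 fold change over all genes was 0.23. A lack of overlap between the cadmium and zinc libraries is favoured by the call itself and is not independent of it. How often it occurs over all genes tested is not given. Where it is stated for a gene below, it describes the libraries and is no further evidence. The genes named for the highest and lowest fold changes, or for the difference between genotypes, were chosen among those without overlap, so their lack of overlap is no finding.

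**Figure D1:**
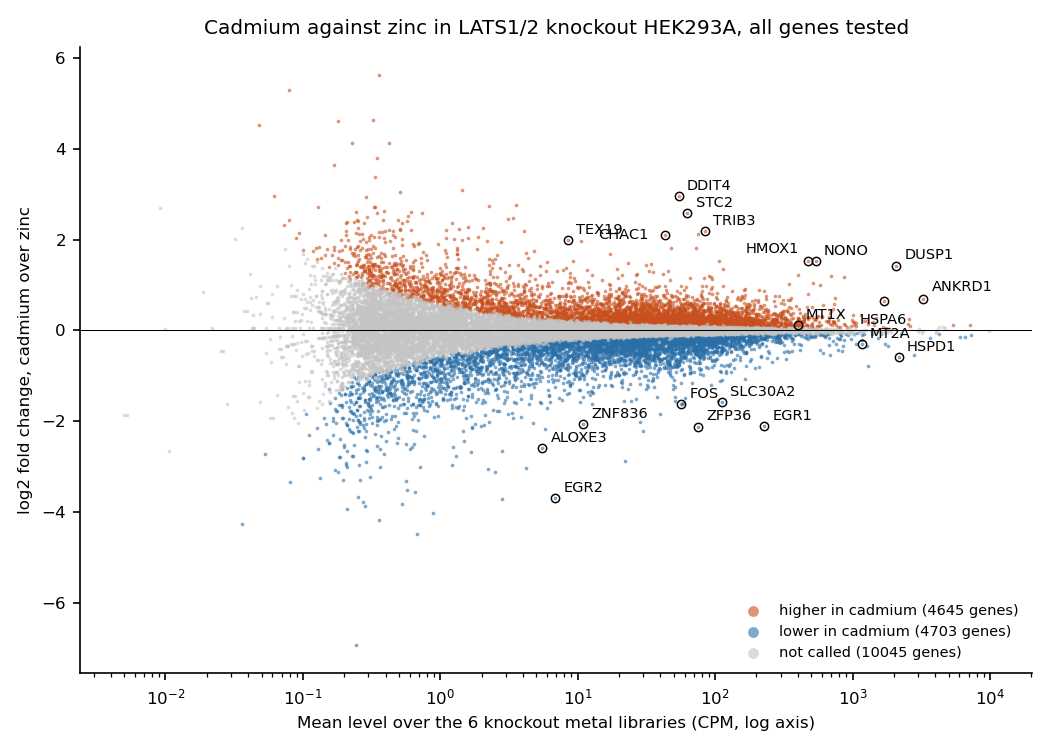
Each point is a gene, plotted by its mean level over the 6 metal libraries of the knockout (CPM, log axis) and by its log2 fold change of cadmium over zinc, orange where called higher in cadmium, blue where called lower and grey where not called. Among genes eligible for naming, DDIT4, STC2, TRIB3, SMAD7 and CHAC1 stand at the top, and EGR2, EGR3, ALOXE3 and ARC at the bottom.

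Water-treated knockout libraries showed on which side each metal stood. Each comparison with water reuses a metal group of the main contrast, so the call between the metals itself favours some of the classes below. Against water, 9110 genes (47%) were called in cadmium and 10841 (55.9%) in zinc. A metal is said to lie alone above or below water where the other was not called. A missing call does not show that the other metal had no effect. Of the 4645 genes higher in cadmium, 1475 (31.8%) were below water in zinc and not called in cadmium, 1040 (22.4%) were below water in both metals, and 873 (18.8%) were above water in cadmium alone. Among the 530 with at least a 2-fold difference, cadmium alone was above water in 218 (41.1%) and zinc alone below water in 138 (26.0%). Of the 4703 genes lower in cadmium, 1645 (35.0%) were above water in zinc and not called in cadmium, 1035 (22.0%) were above water in both, and 853 (18.1%) were below water in cadmium alone. Zinc alone was above water in 437 of the 717 (60.9%) with at least a 2-fold difference. The classes of genes at least 2-fold apart rest mostly on genes of low counts. The metals moved in opposite directions from water in 393 genes higher and 394 genes lower in cadmium. These classes depend on scaling, since the call against water does: cadmium against water gave 4495 genes higher (23.2%) and 4615 lower (23.8%), but 2989 and 7401 when libraries were scaled by their size alone, where the median log2 fold change of all genes was -0.12. Zinc against water gave 5468 higher (28.2%) and 5373 lower (27.7%), but 4197 and 7094 with library size alone.

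**Figure D2:**
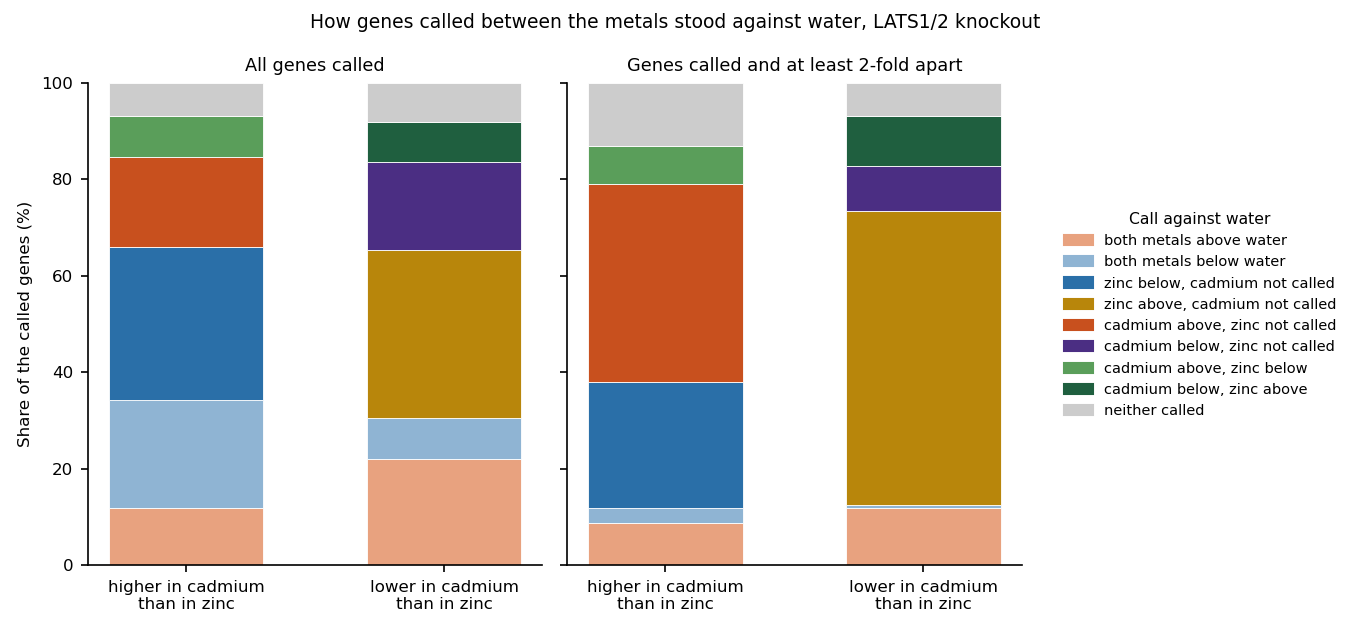
Stacked bars give the share (%) of genes called higher or lower in cadmium than in zinc that fall in each class of calls against water, for all genes called (left) and for those at least 2-fold apart (right). Zinc above water with cadmium not called is the largest class among genes lower in cadmium, with 35.0% and 60.9%.

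Targets of ATF4, the factor of the amino acid stress response, held the highest fold changes among genes eligible for naming. DDIT4 (ENSG00000168209, chromosome 10, 72273920 to 72276036, GRCh38), an inhibitor of mTORC1, had 106, 90.3 and 91.8 CPM in the 3 cadmium libraries, against 12.3, 13.2 and 11.5 CPM in zinc and 11.9, 13.2 and 12.01 CPM in water. Zinc and water libraries overlapped, and all cadmium libraries lay far above them. The log2 fold change of cadmium over zinc was 2.97 ± 0.10 (SE, edgeR adjusted p = 8.63e-24). STC2, which encodes a secreted glycoprotein and lies on chromosome 5, had 106, 108 and 110.1 CPM in cadmium, against 18.6, 18.2 and 16.8 CPM in zinc and 22.3, 23.6 and 23.1 CPM in water, a log2 fold change of 2.59 ± 0.05 (edgeR adjusted p = 2.27e-33). Zinc lay below water in STC2. TRIB3, a pseudokinase on chromosome 20 that is a target of ATF4 and CHOP, had 143, 137 and 135 CPM in cadmium, against 30.8, 31.6 and 29.04 CPM in zinc and 27.2, 25.7 and 29.6 CPM in water. CHAC1, a glutathione-degrading enzyme whose promoter is shown above, had 74.01, 70.6 and 65.5 CPM in cadmium, against 15.8, 17.2 and 15.9 CPM in zinc and 1.903, 2.23 and 1.63 CPM in water. CHAC1 was called above water in both metals, while DDIT4 was called above water in cadmium and not called in zinc. The log2 fold changes of TRIB3 and CHAC1 were 2.18 ± 0.05 and 2.11 ± 0.06.

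Of 32 tested ATF4 targets, 25 were higher in cadmium and 4 lower, with a median log2 fold change of 0.53, where 24% and 24.3% of all genes were called and the median of all genes was 0.00089. Against water, 31 of the 32 were higher in cadmium and 20 in zinc, where 23.2% and 28.2% of all genes were. In every list, calls against water depend on scaling, as given above. ASNS, asparagine synthetase, had 11.6, 11.5 and 12.5 CPM in cadmium, against 6.55, 7.14 and 7.42 CPM in zinc and 1.62, 1.72 and 1.83 CPM in water. SESN2, a leucine sensor, had 234, 225 and 220.3 CPM, against 144, 152 and 139.8 CPM in zinc, and PSAT1, an enzyme of serine synthesis, 206, 202 and 203 CPM, against 146, 143 and 139 CPM. The cadmium and zinc libraries did not overlap in any of these 3 genes. ATF3, a stress-induced factor of the same arm, had 1213 ± 22.8 CPM in cadmium, against 532 ± 14.7 CPM in zinc (SD, n = 3 each), a log2 fold change of 1.19 ± 0.04. GDF15, a stress cytokine, had 2.401, 2.75 and 1.76 CPM in cadmium, against 0.506, 0.816 and 0.417 CPM in zinc. FGF21, a hormone of the same response, had 32 reads over the cadmium libraries and 1 over the zinc libraries, and their ratio was 33.4 (95% counting interval 5.57 to 1359). The 4 lower members were ATF4 itself, PPP1R15A, SLC3A2 and ATF5. ATF4 stood at 493, 468 and 468 CPM in cadmium, against 501, 504 and 495 CPM in zinc, a difference of -0.07 ± 0.03 (edgeR adjusted p = 0.0439) that was lost with DESeq2, with no filter and without zinc replicate 1 or 2 or cadmium replicate 2 or 3. PPP1R15A, which recruits the phosphatase of eIF2alpha, stood at 757, 719 and 759.9 CPM, against 919, 994 and 945 CPM. DDIT3, which encodes CHOP, did not pass the test (log2 fold change 0.03 ± 0.05), with 87.4, 78.1 and 75.9 CPM in cadmium and 76.3, 86.5 and 74.8 CPM in zinc. Of 18 aminoacyl tRNA synthetases tested, 10 were higher, such as YARS1 with 265 ± 6.11 CPM in cadmium, against 195 ± 5.95 CPM in zinc, and 3 lower. Of the 26 ATF4 targets with a promoter in the table, 6 held the CARE letters, namely ATF3, ASNS, SLC3A2, SLC7A1, CHAC1 and FGF21.

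**Figure D3:**
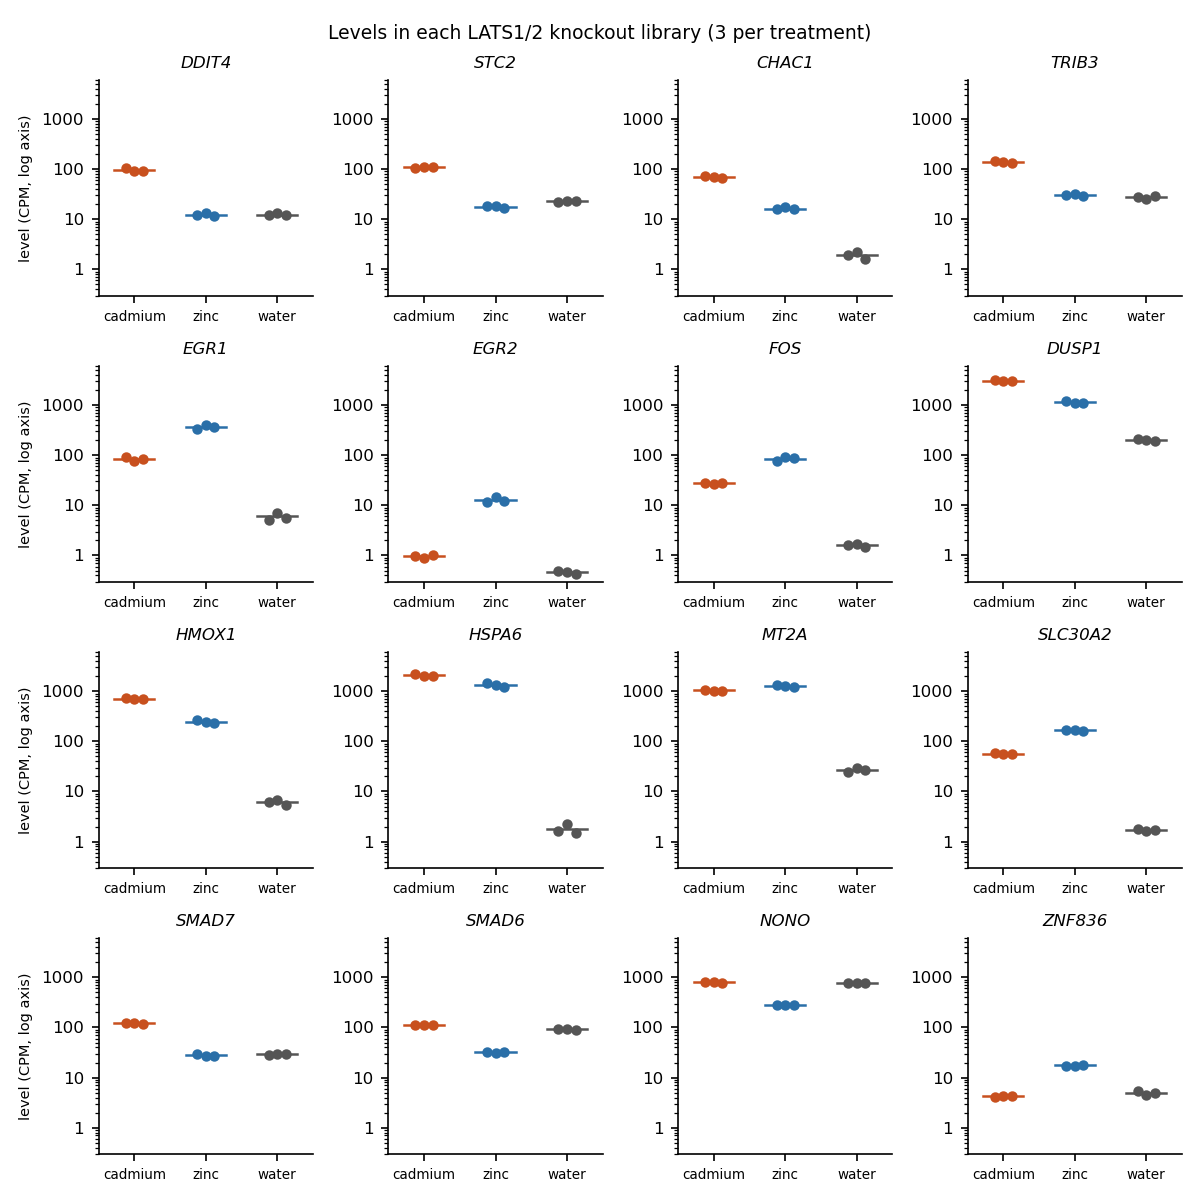
Points give the level (CPM, log axis) of 16 genes in each cadmium, zinc and water library of the LATS1/2 knockout, and lines the mean of 3 libraries. In DDIT4 and SMAD7 cadmium alone lay above water, EGR1, EGR2 and FOS lay above water in both metals and highest in zinc, and NONO was low in zinc alone.

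Metallothioneins, the cysteine-rich proteins that bind zinc and cadmium, lay far above water under both metals, and the most counted of them differed little between the metals. MT2A had 1078, 1031 and 1020.3 CPM in cadmium, against 1336, 1290.5 and 1231 CPM in zinc and 24.8, 29.3 and 26.5 CPM in water, with a log2 fold change of cadmium over zinc of -0.301 ± 0.05. MT1X had 428, 410.3 and 404 CPM in cadmium, against 374, 391 and 379 CPM in zinc and 5.08, 5.24 and 5.68 CPM in water, with a log2 fold change of 0.12 ± 0.04. Cadmium and zinc libraries of both genes stood close together without overlap, far above water. MT1F was 92.5, 88.95 and 91.2 CPM in cadmium, against 79.6, 77.6 and 71.8 CPM in zinc. MT1G was 10.3, 8.97 and 9.68 CPM, against 8.35, 8.63 and 7.602 CPM, with an adjusted p of 0.033 in edgeR's test that was lost with DESeq2, with library size alone, with no filter and without cadmium replicate 1 or 3 or zinc replicate 1 or 3. The call for MT1X was lost without cadmium replicate 1 or zinc replicate 1, so that 2 members remained called higher in each case. MT1B was far rarer, at 2.097, 2.44 and 3.204 CPM in cadmium, against 0.3797, 0.306 and 0.209 CPM in zinc, with 231 reads over the cadmium and 28 over the zinc libraries, and their ratio was 8.60 (95% counting interval 5.80 to 13.2). MT1H, with 0.524, 0.236 and 0.276 CPM in cadmium and 0.506, 0.442 and 0.447 CPM in zinc, did not pass the test. Of 11 metallothionein genes listed, 6 were tested, 4 of them higher and 1, MT2A, lower in cadmium, against 24% and 24.3% of all genes. All 6 were above water in each metal, where 23.2% of all genes were in cadmium and 28.2% in zinc. Counts over metallothioneins summed to 1529 to 1612 CPM in cadmium and 1690.2 to 1798 CPM in zinc. MT1E had 6 reads in each metal, MT1M had 1 read in cadmium and none in zinc, and MT1A, MT3 and MT4 were at 0 in all 6 libraries. The MT1 genes are near-identical, so reads may have been split among them.

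Of 11 genes tested in the list of zinc exporters and MTF1, 7 were lower in cadmium (63.6%) and 2 higher (18.2%), where 24.3% and 24% of all genes were. SLC30A2, which exports zinc into vesicles, had 58.1, 54.8 and 55.2 CPM in cadmium, against 168, 170.1 and 164 CPM in zinc and 1.76, 1.66 and 1.68 CPM in water, a log2 fold change of -1.58 ± 0.07 (edgeR adjusted p = 1.27e-21). SLC30A1, the exporter of the plasma membrane, had 627, 664 and 669 CPM in cadmium, against 671, 692 and 703 CPM in zinc and 58.6, 58.3 and 59.4 CPM in water. Both metals lay far above water, and the small difference between them of -0.08 ± 0.03 (edgeR adjusted p = 0.045) was lost with DESeq2, with no filter and without cadmium replicate 1, zinc replicate 2 or zinc replicate 3. MTF1 stood at 34.3, 35.4 and 34.4 CPM in cadmium, against 58.5, 61.3 and 61.1 CPM in zinc and 29.6, 31.4 and 34.04 CPM in water, with a log2 fold change of -0.798 ± 0.05. SLC30A3 was also called lower, with 1.99, 1.34 and 1.41 CPM in cadmium, against 3.23, 3.36 and 2.56 CPM in zinc. Further members called lower were SLC30A4, SLC30A7 and SLC30A10, with log2 fold changes of -0.37, -0.23 and -0.42, the last lost with DESeq2, with no filter and without cadmium replicate 1 or 3 or zinc replicate 1 or 3. SLC30A6 and SLC30A9 were called higher by 0.13 and 0.09, calls lost with library size alone, and both lost without zinc replicate 2. SLC30A6 was also lost without cadmium replicate 2 or 3, and SLC30A9 without cadmium replicate 1. SLC30A5 did not pass, at 96.2 ± 1.13 CPM in cadmium and 94.4 ± 2.9004 CPM in zinc (SD, n = 3 each). The 2 higher thus became 0 without zinc replicate 2 and 1 without any 1 of the cadmium libraries. Among 12 importers tested, 4 were higher (33.3%) and 3 lower (25%), where 24% and 24.3% of all genes were. The 3 became 5 without cadmium replicate 1. SLC39A10, an importer of the plasma membrane, had 39.3, 41.5 and 41.2 CPM in cadmium, against 23.7, 25.8 and 26.5 CPM in zinc and 63.3, 67.1 and 69.6 CPM in water. Both metals lay below water, zinc more so, and the log2 fold change of cadmium over zinc was 0.68 ± 0.06.

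Most immediate early genes were lower in cadmium than in zinc. EGR2, a zinc finger factor of the early growth response family, had 0.993, 0.905 and 1.03 CPM in cadmium, against 11.5, 14.5 and 12.2 CPM in zinc and 0.493, 0.4704 and 0.427 CPM in water. Its log2 fold change of -3.69 ± 0.12 (edgeR adjusted p = 2.32e-24) was the lowest among genes eligible for naming. EGR1 (ENSG00000120738, chromosome 5, 138465490 to 138469315, GRCh38) had 93.1, 78.2 and 84.5 CPM in cadmium, against 332, 402 and 370.1 CPM in zinc and 5.22, 7.18 and 5.703 CPM in water, with a log2 fold change of -2.104 ± 0.05 (edgeR adjusted p = 8.21e-29). Both metals lay above water in EGR1 and EGR2. EGR3 had 5.85, 4.64 and 5.202 CPM in cadmium, against 34.6, 43.5 and 39.1 CPM in zinc, and FOS, a subunit of AP-1, 28.5, 26.6 and 28.1 CPM, against 76.5, 92.4 and 88.6 CPM in zinc and 1.59, 1.72 and 1.51 CPM in water. FOSB had 13.1, 12.2 and 13.5 CPM in cadmium, against 25.6, 30.4 and 29.5 CPM in zinc, and NR4A1, an orphan nuclear receptor, 81.02, 73.8 and 71.9 CPM, against 145, 148 and 139 CPM. ZFP36, which promotes decay of AU-rich mRNAs, had 29.5, 25.9 and 29.2 CPM in cadmium, against 114, 130.0 and 125 CPM in zinc and 3.56, 3.95 and 3.49 CPM in water. EGR3, FOS, FOSB, NR4A1 and ZFP36 were called above water in both metals. ARC, an activity-regulated gene, stood below water in cadmium at 10.6, 10.5 and 10.5 CPM and above it in zinc at 44.5, 50.8 and 51.9 CPM, where water had 30.5, 30.8 and 32.1 CPM. BTG2, an antiproliferative early gene, followed the same pattern, with 29.1, 28.6 and 28.7 CPM in cadmium, against 83.8, 87.6 and 90.5 CPM in zinc and 39.1, 40.5 and 38.3 CPM in water.

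Of 30 immediate early genes tested, 18 were lower in cadmium (60%) and 8 higher (26.7%), where 24.3% and 24% of all genes were. The median log2 fold change was -0.87. JUN was among the 8 higher, at 994, 973 and 964 CPM in cadmium, against 405, 429 and 445 CPM in zinc and 211, 201 and 206 CPM in water, a log2 fold change of 1.197 ± 0.03 (edgeR adjusted p = 6.59e-28). All 3 cadmium libraries stood above any zinc library in JUN, opposite to its AP-1 partner FOS. MYC had 35.8, 38.8 and 37.9 CPM in cadmium, against 19.05, 16.8 and 19.4 CPM in zinc and 38.7, 37.9 and 37.96 CPM in water, so that zinc alone was called below water. IER3 had 36.9, 32.6 and 35.7 CPM in cadmium, against 20.9, 23.2 and 22.3 CPM in zinc. Against water, 23 of the 30 were higher in cadmium and 29 in zinc, where 23.2% and 28.2% of all genes were.

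Feedback regulators of MAP kinase signalling were mostly lower in cadmium, 12 of 17 tested, with 2 higher. The 2 higher were DUSP1 and DUSP16. DUSP1, a phosphatase of stress-activated MAP kinases, had 3120.3, 3029 and 2987 CPM in cadmium, against 1195, 1114 and 1078 CPM in zinc and 207, 201 and 192 CPM in water, a log2 fold change of 1.43 ± 0.08 (edgeR adjusted p = 1.41e-17). DUSP2, a phosphatase of the nucleus, had 12.004, 12.4 and 12.6 CPM in cadmium, against 32.2, 37.8 and 38.97 CPM in zinc and 3.03, 3.23 and 3.72 CPM in water, a log2 fold change of -1.56 ± 0.07. The ETS factor ETV5 had 13.3, 13.2 and 13.8 CPM in cadmium, against 33.98, 32.3 and 32.2 CPM in zinc, and SPRY4, an inhibitor of receptor tyrosine kinase signalling, 21.1, 21.4 and 20.3 CPM, against 42.5, 40.7 and 41.9 CPM. Both were above water in both metals. Among 5 EGF family ligands tested, 4 were lower in cadmium, among them AREG with 1.297, 0.826 and 1.03 CPM, against 3.35, 3.19 and 3.07 CPM in zinc, and HBEGF with 93.7, 91.1 and 88.1 CPM, against 119.9, 116 and 116 CPM.

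Heat shock genes rose under both metals, and most stood lower in cadmium. Of 34 tested, 22 were lower (64.7%) and 8 higher (23.5%) in cadmium than in zinc, where 24.3% and 24% of all genes were. Above water were 31 in each metal, where 23.2% of all genes were in cadmium and 28.2% in zinc. HSPA6, the strictly inducible HSP70, had 2168, 2016 and 2035 CPM in cadmium, against 1439, 1333 and 1212 CPM in zinc and 1.62, 2.26 and 1.46 CPM in water, a log2 fold change of 0.64 ± 0.09. CRYAB, a small heat shock protein on chromosome 11, had 6.02, 4.84 and 4.89 CPM in cadmium, against 0.886, 1.12 and 0.865 CPM in zinc and 0.352, 0.439 and 0.452 CPM in water, with a log2 fold change of 2.47 ± 0.17. In both genes every cadmium library lay above every zinc library, and every zinc library above water. HSPD1, the chaperonin of mitochondria, ran the other way with 1731, 1732 and 1736 CPM in cadmium, against 2626, 2587 and 2569 CPM in zinc and 1304, 1277 and 1254 CPM in water. HSPA1A had 91.8, 89.8 and 91.2 CPM in cadmium, against 191, 169 and 153 CPM in zinc, though HSPA1A and HSPA1B are near-identical, as are HSPA6 and HSPA7, and reads may have been split. Summed levels of the list were 45557 to 46508.5 CPM in cadmium and 48044 to 50895 CPM in zinc.

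Genes of the unfolded protein response in the endoplasmic reticulum were lower in cadmium in 20 of 26 tested, with a median of -0.28. Above water were 11 in cadmium and 23 in zinc, where 23.2% and 28.2% of all genes were. ERN1, the sensor IRE1alpha, had 29.3, 29.9 and 31.5 CPM in cadmium, against 70.4, 75.2 and 70.5 CPM in zinc and 19.8, 19.6 and 21.8 CPM in water, a log2 fold change of -1.25 ± 0.05 (edgeR adjusted p = 4.44e-23). DNAJB9, a cochaperone of BiP, had 31.02, 31.3 and 31.8 CPM in cadmium, against 58.98, 57.4 and 60.5 CPM in zinc and 12.3, 13.4 and 12.5 CPM in water. HYOU1, another chaperone of the compartment, had 174 ± 2.93 CPM in cadmium, against 257 ± 9.29 CPM in zinc and 183 ± 4.02 CPM in water (SD, n = 3 each), so that zinc alone was called above water. SDF2L1 showed the same order, with 20.1 ± 0.891 CPM in cadmium, 37.6 ± 2.28 CPM in zinc and 22.1 ± 2.04 CPM in water. The 2 higher members were XBP1, the factor spliced by IRE1alpha, and the sensor ATF6. XBP1 had 335, 324 and 332 CPM in cadmium, against 274, 269 and 268 CPM in zinc.

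Of 32 tested NRF2 targets, genes of the oxidative stress response, 11 were higher (34.4%), 7 lower (21.9%) and 14 not called, against 24% and 24.3% of all genes, and the median log2 fold change was 0.011. HMOX1, heme oxygenase on chromosome 22, had 726, 689 and 712 CPM in cadmium, against 263, 238 and 237 CPM in zinc and 6.24, 6.77 and 5.43 CPM in water, with a log2 fold change of 1.53 ± 0.08 (edgeR adjusted p = 8.20e-18). TXNRD1, thioredoxin reductase, had 848, 889 and 914 CPM in cadmium, against 607, 570.0 and 584 CPM in zinc and 325, 317 and 319.7 CPM in water. SRXN1, sulfiredoxin, had 2.68, 2.87 and 3.79 CPM in cadmium, against 1.65, 1.05 and 1.76 CPM in zinc. Every cadmium library of these 3 genes lay above every zinc library. Lower in cadmium were UGDH, which makes UDP-glucuronate, at 40.8 ± 1.67 CPM, against 63.1 ± 1.13 CPM in zinc (SD, n = 3 each), and the transporter ABCC2, at 4.97 ± 0.572 CPM, against 7.896 ± 0.823 CPM. Of 17 iron and heme genes tested, 7 were higher (41.2%) and 5 lower (29.4%), and the 7 became 4 without zinc replicate 2, near the share of all genes. SLC40A1, the iron exporter ferroportin, had 3.17, 2.16 and 2.55 CPM in cadmium, against 7.88, 8.06 and 8.497 CPM in zinc and 13.9, 11.9 and 11.6 CPM in water. It lay below water in both metals and lowest in cadmium. FTL, ferritin light chain, had 1125 ± 41.2 CPM in cadmium, against 1431 ± 28.3 CPM in zinc and 483 ± 7.16 CPM in water (SD, n = 3 each).

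Genes of the BMP and TGF-beta pathway stood higher in cadmium in 12 of 14 tested. SMAD7 and SMAD6 are inhibitory SMADs, which block the receptors of the pathway. SMAD7 had 124, 121 and 118 CPM in cadmium, against 29.96, 27.3 and 26.4 CPM in zinc and 28.02, 30.2 and 30.1 CPM in water, a log2 fold change of 2.12 ± 0.04 (edgeR adjusted p = 2.42e-31). SMAD6 had 115, 112 and 112 CPM in cadmium, against 32.5, 30.7 and 32.5 CPM in zinc and 94.6, 91.9 and 90.4 CPM in water, a log2 fold change of 1.82 ± 0.04. In SMAD7 zinc overlapped with water and cadmium lay above, and in SMAD6 zinc lay far below water and cadmium above it. ID3, an inhibitor of helix-loop-helix factors and a target of BMP signalling, had 168, 158 and 149 CPM in cadmium, against 57.99, 50.8 and 55.5 CPM in zinc and 73.9, 77.6 and 75.2 CPM in water, and ID1 99.6, 88.3 and 86.1 CPM, against 42.97, 39.02 and 40.8 CPM in zinc. The ligand BMP2 differed by 0.25 ± 0.06 (edgeR adjusted p = 3.46e-04), at 30.4, 31.4 and 33.7 CPM in cadmium, against 26.6, 25.1 and 28.5 CPM in zinc and 59.9, 57.2 and 57.4 CPM in water. Notch genes ran the other way, with 11 of 16 lower and 3 higher. NRARP, a feedback inhibitor induced by Notch, had 48.4, 42.6 and 42.4 CPM in cadmium, against 84.2, 86.9 and 86.4 CPM in zinc and 60.4, 60.02 and 61.4 CPM in water. The ligand JAG1 had 41.3, 40.6 and 39.8 CPM in cadmium, against 70.7, 66.9 and 69.3 CPM in zinc, and DLL1 6.402, 6.098 and 6.51 CPM, against 10.9, 9.69 and 9.57 CPM. The 3 higher were HES1, HEY1 and HEYL, all of them transcription factors downstream of Notch, and HEY1 had 26.1, 25.1 and 24.5 CPM in cadmium, against 16.8, 15.5 and 15.3 CPM in zinc.

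Of 25 targets of YAP and TAZ tested, 14 were higher in cadmium than in zinc in the knockout (56%) and 6 lower (24%). Of all genes, 24% and 24.3% were. The median was 0.13. CCN1, a matricellular protein, had 782, 763 and 787 CPM in cadmium, against 379.9, 379 and 407 CPM in zinc and 381, 368 and 378 CPM in water, a log2 fold change of 0.999 ± 0.07 (edgeR adjusted p = 1.97e-14). ANKRD1, a nuclear ankyrin repeat protein, had 4053, 3962 and 4073 CPM in cadmium, against 2612, 2466 and 2404 CPM in zinc and 454, 427 and 412 CPM in water. CCN2 had 408, 406 and 396 CPM in cadmium, against 284, 278 and 285 CPM in zinc and 416, 390.0 and 385 CPM in water. Cadmium and water libraries of CCN2 overlapped and zinc lay below both, while CCN1 was not called against water in zinc and lay above it in cadmium. AMOTL2, an inhibitor of YAP, had 288, 274 and 271 CPM in cadmium, against 203, 210.2 and 205 CPM in zinc. DLC1, a tumour suppressor, had 61.03 ± 2.56 CPM in cadmium, against 36.1 ± 1.44 CPM in zinc (SD, n = 3 each), GADD45A 120.2 ± 5.89 CPM, against 82.3 ± 3.56 CPM, and TGFB2 9.99 ± 0.314 CPM, against 7.896 ± 0.7502 CPM. The 6 lower were LATS2, F3, CRIM1, IGFBP3, NUAK2 and WTIP. F3, tissue factor, had 9.96, 10.9 and 10.9 CPM in cadmium, against 24.05, 23.9 and 24.5 CPM in zinc and 7.33, 7.996 and 8.92 CPM in water, the lowest log2 fold change of the list at -1.199 ± 0.08. AJUBA, AXL, NT5E, FJX1 and ASAP1 did not pass. LATS2, itself both a target and a gene knocked out here, had a log2 fold change of -0.61 ± 0.05, and WTIP of -0.41 ± 0.05.

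Among 21 Hippo components tested, 10 were higher (47.6%) and 4 lower (19%) in cadmium, where 24% and 24.3% of all genes were. The angiomotin AMOT had 40.5, 41.03 and 39.9 CPM in cadmium, against 28.98, 29.5 and 30.3 CPM in zinc and 52.9, 53.8 and 52.7 CPM in water, and the kinase TAOK1 142, 163 and 159.8 CPM, against 110.0, 116 and 125 CPM in zinc. TEAD3, a DNA-binding partner of YAP, was lower at 24.9, 22.8 and 22.8 CPM in cadmium, against 37.1, 38.99 and 37.9 CPM in zinc. Actin targets of SRF and MRTF were higher in 8 of 18 (44.4%) and lower in 2 (11.1%). The 8 became 5 without zinc replicate 2 or zinc replicate 3 and with library size alone. TAGLN, transgelin, had 24.9, 21.9 and 26.04 CPM in cadmium, against 13.6, 13.7 and 12.8 CPM in zinc and 7.01, 7.02 and 6.96 CPM in water. THBS1, thrombospondin 1, ran the other way, with 111, 119 and 114 CPM in cadmium, against 139, 140.4 and 143 CPM in zinc, and CNN1, calponin, did not pass, with 6.402, 6.33 and 7.27 CPM in cadmium and 6.14, 5.23 and 5.49 CPM in zinc.

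**Figure D4:**
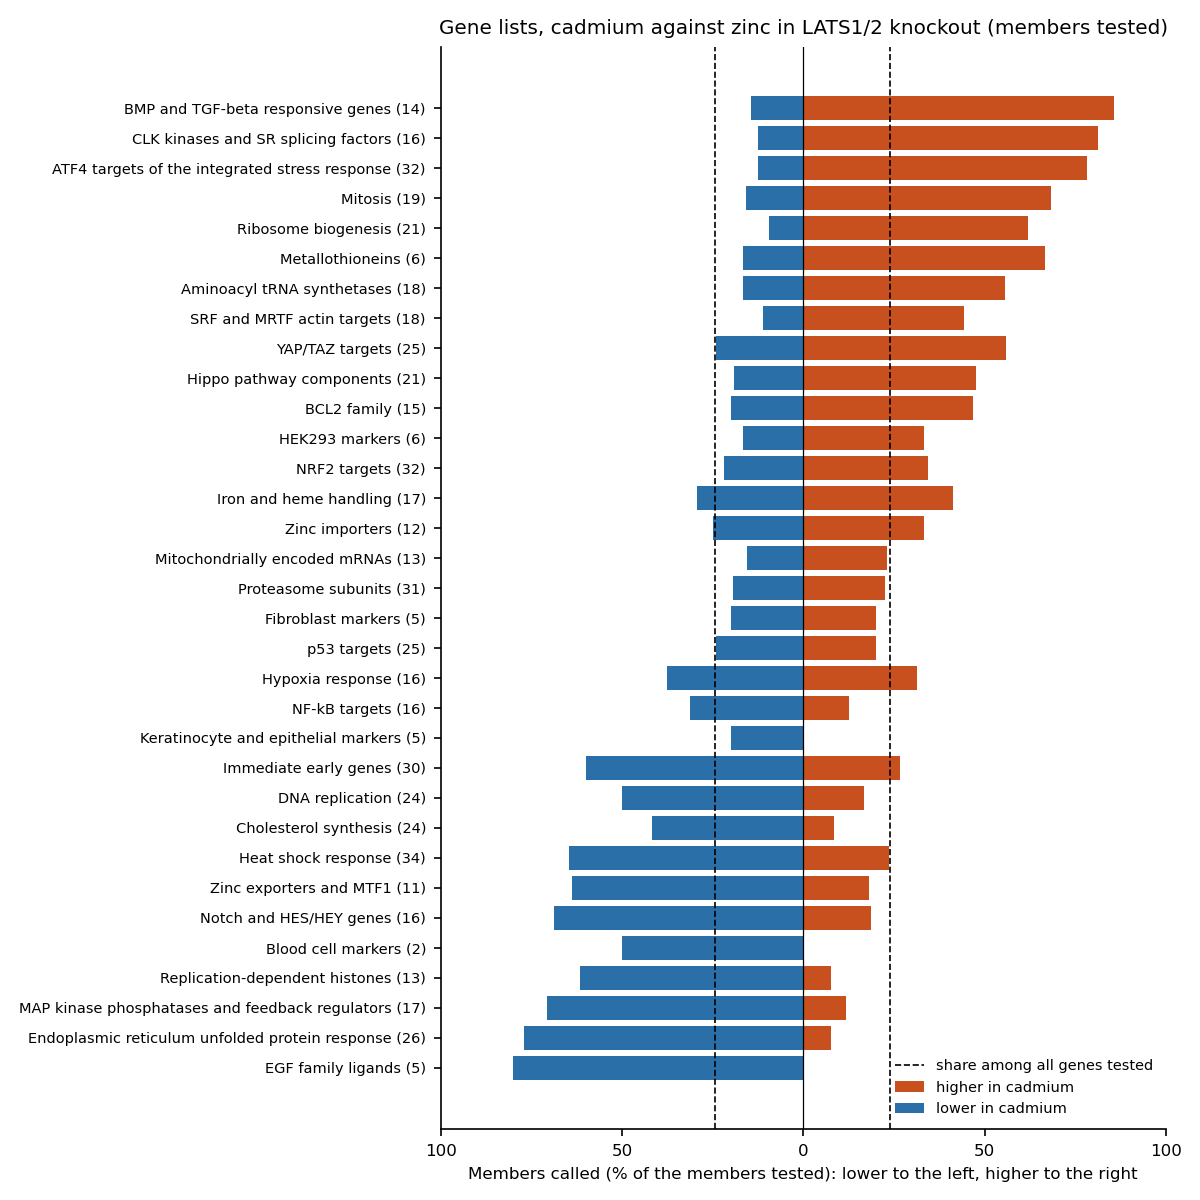
For each gene list, bars give the percentage of tested members (number in brackets) called higher in cadmium, to the right, and lower, to the left, in the LATS1/2 knockout. Dashed lines mark the shares among all genes tested, 24% higher and 24.3% lower. BMP genes, SR splicing factors and ATF4 targets stand at the top, and EGF ligands, the unfolded protein response and MAP kinase feedback genes at the bottom.

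NONO, a paraspeckle and splicing protein on chromosome X, had 817, 793 and 784 CPM in cadmium, against 276, 277 and 281 CPM in zinc and 778, 779.6 and 768 CPM in water, with a log2 fold change of 1.52 ± 0.03 (edgeR adjusted p = 8.67e-34). Cadmium was not called against water, and zinc alone lay far below. Of 16 CLK kinases and SR splicing factors tested, 13 were higher and 2, CLK3 and SRSF11, lower, with a median of 0.36. CLK1, a kinase of SR proteins, had 129, 131 and 132 CPM in cadmium, against 59.4, 60.3 and 58.3 CPM in zinc and 38.6, 39.4 and 38.4 CPM in water. SRSF6 had 344, 349.8 and 340.1 CPM in cadmium, against 202, 208 and 202 CPM in zinc and 332, 326 and 321 CPM in water, and SRSF7 449, 432 and 445 CPM, against 267, 269 and 270.3 CPM and 326, 317 and 316 CPM. Ribosome biogenesis genes were higher in 13 of 21 and lower in 2, NOP56 and BOP1, the 2 becoming 1 without any 1 of cadmium replicates 2 and 3 and zinc replicates 2 and 3. RRS1 had 35.2, 33.4 and 34.2 CPM in cadmium, against 19.6, 19.3 and 19.97 CPM in zinc and 53.8, 52.8 and 52.6 CPM in water, and POLR1B, a subunit of RNA polymerase I, 79.6, 81.5 and 78.7 CPM, against 53.9, 49.998 and 55.5 CPM and 109, 108 and 108 CPM. Both genes lay below water in both metals, and lowest in zinc.

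Mitotic genes were higher in cadmium in 13 of 19 and lower in 3, CDK1, AURKB and UBE2C. Below water lay 10 of the 19 in cadmium and 15 in zinc, where 23.8% and 27.7% of all genes did. KIF11, a spindle motor, had 208, 212 and 221 CPM in cadmium, against 142, 137 and 146 CPM in zinc and 224, 218 and 217 CPM in water, and TOP2A, topoisomerase II alpha, 784, 811 and 822 CPM, against 593, 582 and 615 CPM and 856, 849 and 833 CPM. PLK1, a mitotic kinase, had 93.1 ± 3.27 CPM in cadmium, against 68.4 ± 3.48 CPM in zinc and 116 ± 1.98 CPM in water (SD, n = 3 each). Replication genes ran the other way, with 12 of 24 lower and 4 higher, the 4 becoming 2 without any 1 of cadmium replicates 1 and 2 and zinc replicates 2 and 3. CDC6, a loader of the replicative helicase, had 271, 260.0 and 272 CPM in cadmium, against 375, 372 and 368 CPM in zinc and 212, 209 and 206 CPM in water, and MCM7, a helicase subunit, 494 ± 9.59 CPM, against 671 ± 7.96 CPM. Histone genes were lower in 8 of 13. H4C8 had 2.54, 2.87 and 2.03 CPM in cadmium, against 6.36, 6.66 and 6.95 CPM in zinc and 0.775, 1.54 and 1.21 CPM in water. Histone genes are near-identical copies and their mRNAs mostly lack poly(A) tails, so their counts in these mRNA libraries are uncertain.

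Zinc finger genes filled several of the lowest places. ZNF836, on chromosome 19, had 4.14, 4.25 and 4.203 CPM in cadmium, against 17.2, 17.3 and 18.2 CPM in zinc and 5.46, 4.58 and 4.9998 CPM in water, a log2 fold change of -2.07 ± 0.09. ZNF557 had 16.3, 18.3 and 17.6 CPM in cadmium, against 63.2, 60.4 and 62.2 CPM in zinc and 17.8, 18.1 and 16.6 CPM in water, and ZNF160 26.4, 29.2 and 29.5 CPM, against 86.8, 84.9 and 90.1 CPM and 29.8, 29.7 and 28.9 CPM. Zinc stood above water in all 3 genes, and cadmium was not called against water. A list of all tested genes named ZNF and a number was made after this was seen and has no test. Of its 447 genes, 279 (62.4%) were lower in cadmium and 64 (14.3%) higher, where 24.3% and 24% of all genes were. The median log2 fold change of cadmium over zinc was -0.32 in the knockout and -0.11 in wild type. Against water, the median in the knockout was 0.089 in cadmium and 0.43 in zinc. The 228 on chromosome 19 gave 144 lower and 33 higher.

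Among the remaining genes at the extremes, ALOXE3, a lipoxygenase, had 1.66, 1.81 and 1.24 CPM in cadmium, against 9.87, 10.5 and 8.08 CPM in zinc and 0.705, 0.972 and 0.854 CPM in water. RNF227 had 11.2, 10.8 and 11.99 CPM in cadmium, against 43.98, 47.5 and 45.6 CPM in zinc, and TENT5A, a poly(A) polymerase, 6.24, 5.705 and 6.61 CPM, against 20.7, 19.2 and 17.4 CPM. On the cadmium side, TEX19 had 12.8, 14.1 and 13.7 CPM in cadmium, against 3.32, 3.33 and 3.52 CPM in zinc, EMILIN2, an extracellular matrix protein, 75.8, 73.2 and 75.8 CPM, against 20.8, 21.4 and 21.9 CPM, and NPPB, a natriuretic peptide, 28.5, 24.9 and 24.9 CPM, against 8.83, 8.497 and 7.27 CPM.

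Genes of cell death and growth arrest lay on both sides. Of 15 BCL2 family members tested, 7 were higher (46.7%) and 3 lower (20%) in cadmium, where 24% and 24.3% of all genes were. The 3 became 1 without cadmium replicate 2 or 3. HRK, a proapoptotic BH3-only protein, had 27.8, 28.6 and 27.1 CPM in cadmium, against 12.5, 10.1 and 9.93 CPM in zinc and 7.01, 6.71 and 7.21 CPM in water, and PMAIP1, another of this class, 186, 191 and 198 CPM, against 115, 121 and 122 CPM. BCL2L11, also BH3-only, was lower at 35.1, 35.3 and 34.5 CPM in cadmium, against 57.2, 60.2 and 56.8 CPM in zinc. CDKN1A, the cyclin-dependent kinase inhibitor p21, had 81.7, 77.8 and 78.03 CPM in cadmium, against 124, 128 and 117 CPM in zinc and 33.1, 33.99 and 32.8 CPM in water. Of 25 p53 targets, 5 were higher and 6 lower, shares close to those of all genes. NF-kB targets gave 2 of 16 higher (12.5%), 1 of them without zinc replicate 1 or 3 or cadmium replicate 3. Lower were 5 (31.2%), such as TNFAIP3 with 5.16, 5.35 and 5.06 CPM in cadmium, against 9.87, 11.6 and 10.9 CPM in zinc.

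Cholesterol synthesis genes were lower in 10 of 24 and higher in 2, SQLE and SC5D, the 2 becoming 1 without any 1 of the zinc libraries or cadmium replicate 1 or 3. Hypoxia genes gave 5 of 16 higher (31.2%) and 6 lower (37.5%), with VEGFA at 106, 99.9 and 101 CPM in cadmium, against 71.1, 76.4 and 74.9 CPM in zinc. Proteasome subunits gave 7 of 31 higher (22.6%) and 6 lower (19.4%), no more than the shares of all genes, the 6 becoming 10 without cadmium replicate 1 and 11 with library size alone. Mitochondrially encoded mRNAs gave 3 of 13 higher (23.1%) and 2 lower (15.4%), also no more than those shares, and the 3 became 6 without zinc replicate 1 or cadmium replicate 3, and the 2 became 0 without zinc replicate 1 and 1 without cadmium replicate 2 or zinc replicate 2. Lists of markers of other cell types were summed in the same libraries. The line itself may express listed genes, so a sum does not show that other cells were present. Fibroblast markers summed to 53.5 to 59.6 CPM in cadmium and 57.7 to 65.5 CPM in zinc with PDGFRA higher and COL1A1 lower among 5 tested. Of 5 keratinocyte and epithelial markers tested, KRT10 was lower, with KRT1 at 0 in all 6 libraries, and the 9 listed summed to 2539 to 2809 CPM in cadmium and 2685 to 2758 CPM in zinc. Of 2 blood cell markers tested, CD14 was lower, with HBB at 0, and the 9 listed summed to 3.31 to 4.27 CPM in cadmium and 4.43 to 5.78 CPM in zinc. Their part in the results was not tested, and in bulk RNA fewer cells of a type and less RNA per cell cannot be told apart.

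Wild-type cells under the same metals gave the same contrast with none of the libraries shared. There, 10147 genes (52.3%) were called between cadmium and zinc, 5293 (27.3%) higher and 4854 (25%) lower in cadmium. Of the 4645 genes higher in cadmium in the knockout, 3230 (69.5%) were also called higher in wild type, which is 61.0% of the genes higher there, and 157 were called lower. Of the 4703 genes lower in the knockout, 3061 (65.1%) were also lower in wild type, 63.1% of those lower there, and 289 were called higher. Across the 19393 genes, the log2 fold changes of both genotypes correlated with a Pearson coefficient of 0.63 and a Spearman coefficient of 0.62, a description across genes that are not independent. The difference of the contrast between genotypes was itself tested, and 4571 genes (23.6%) passed, 1870 (9.64%) with a higher value in the knockout and 2701 (13.9%) with a lower one. This split became 2358 and 2239 with library size alone. Among wild-type libraries, zinc replicate 3 differed most from its group: per degree of freedom, chi-square was 4.98 and 5.06, against 1.88 between the other two zinc libraries, and without it 4661 genes passed.

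ATF4 targets and early genes set the genotypes apart. CHAC1 had a log2 fold change of 2.11 ± 0.06 in the knockout, against 0.01 ± 0.05 in wild type, where cadmium libraries had 49.7, 50.8 and 49.5 CPM and zinc libraries 50.2, 44.7 and 53.8 CPM. The difference was 2.095 ± 0.08 (edgeR adjusted p = 1.25e-21). DDIT4 had 2.97 ± 0.10 in the knockout, against 0.68 ± 0.09 in wild type. For ASNS the sign differed, at 0.75 ± 0.08 in the knockout and -0.73 ± 0.06 in wild type, where the libraries had 17.9, 19.7 and 18.5 CPM in cadmium and 34.1, 31.6 and 27.4 CPM in zinc. Over the 32 ATF4 targets the difference passed upward in 22 and downward in 4, where 9.64% and 13.9% of all genes did, with a median of 0.56. In wild type 15 of them were higher in cadmium and 11 lower, where 27.3% and 25% of all genes were. Early genes moved the other way. FOSB had -1.14 ± 0.09 in the knockout, against 2.54 ± 0.06 in wild type, where cadmium libraries had 351, 324 and 351 CPM and zinc libraries 51.8, 53.3 and 70.9 CPM, a difference of -3.68 ± 0.11 (edgeR adjusted p = 3.40e-25). NR4A1 had -0.93 ± 0.05 in the knockout, against 1.53 ± 0.05 in wild type, and EGR1 -2.104 ± 0.05, against -0.29 ± 0.05. EGR3 had -2.88 ± 0.09, against 0.25 ± 0.08. Of the 30 immediate early genes, the difference passed downward in 25 and upward in 2, where 13.9% and 9.64% of all genes did. Wild type had 16 of the 30 higher and 12 lower in cadmium, where 27.3% and 25% of all genes were. The difference also passed downward in 11 of the 17 MAP kinase feedback genes and upward in 2, and in 10 and 1 of the 18 SRF targets. Such a shift was not confined to these lists. Downward and upward were 11 and 0 of the 21 ribosome biogenesis genes and 8 and 0 of the 13 mitochondrially encoded mRNAs. Of the 34 heat shock genes, 13 passed downward and 6 upward.

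**Figure D5:**
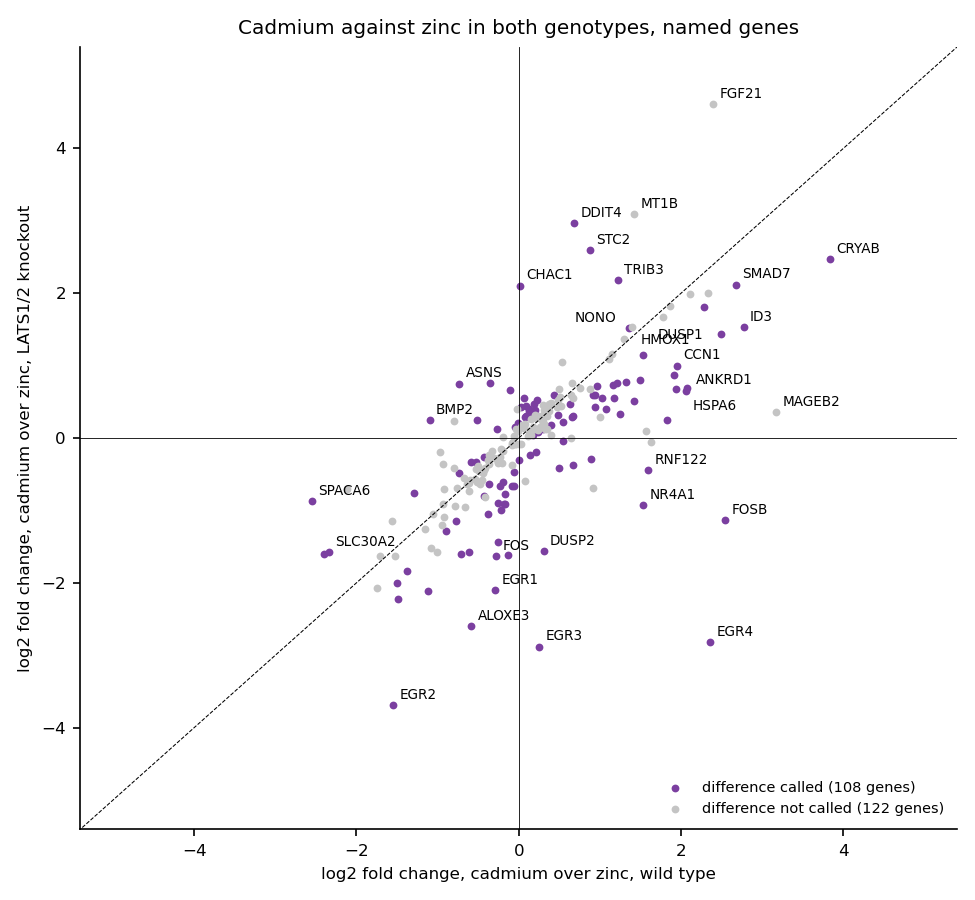
Each point is 1 of the 230 genes picked by the naming rule, plotted by its log2 fold change of cadmium over zinc in wild type (horizontal) and in the LATS1/2 knockout (vertical), purple where the difference between genotypes was called and grey where not. The dashed line marks equal values. CHAC1, DDIT4 and ASNS lie above it, and FOSB, EGR3 and NR4A1 far below it.

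The test of the difference did not pass for HMOX1, SMAD6 or HRK, while it passed for most genes with the highest and lowest fold changes. HMOX1 had 1.53 ± 0.08 in the knockout, against 1.39 ± 0.08 in wild type, SMAD6 1.82 ± 0.04, against 1.87 ± 0.05, and HRK 1.36 ± 0.09, against 1.299 ± 0.07. Their differences were 0.13 ± 0.12, -0.05 ± 0.07 and 0.06 ± 0.11. NONO passed with a small difference of 0.17 ± 0.04 (edgeR adjusted p = 5.61e-04). Of the 25 YAP/TAZ targets, the difference passed downward in 11 and upward in 1, where 13.9% and 9.64% of all genes did. CCN1 had 0.999 ± 0.07 in the knockout, against 1.95 ± 0.08 in wild type, where cadmium libraries had 536, 539 and 487 CPM and zinc libraries 139, 166 and 98.3 CPM. CCN2 had 0.51 ± 0.06, against 1.42 ± 0.07, and ANKRD1 0.69 ± 0.12, against 2.08 ± 0.13. In each of these 3 targets the test of the difference passed. Among metallothioneins, MT1X was slightly higher in cadmium in the knockout, 0.12 ± 0.04, and lower in wild type, -0.27 ± 0.04, and the difference of 0.39 ± 0.05 passed (edgeR adjusted p = 5.44e-07). SPACA6, RNF122 and MAGEB2 completed the extremes by the size of the difference, at 1.68 ± 0.17, -2.03 ± 0.14 and -2.82 ± 1.65, the last not passing the test (edgeR adjusted p = 0.239).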

How the data were processed

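RNA was extracted with TRIzol and sequenced from Illumina TruSeq stranded mRNA libraries, per the labels' protocols. The authors deposited raw counts per Ensembl gene. Reads were aligned with STAR, and hg38 and GRCh38.p13 are named as builds, per the submitters' processing notes. Which counter and annotation were used is not given in the sources used here, nor are tool versions. The deposited table counts both strands together, so genes that overlap on opposite strands cannot be told apart, and DNAJA4, NOP16 and SLC39A9, counted in their lists, hold many reads of the minor strand. Near-identical copies may share reads. The 18 libraries held 25478614 to 37148046 counts, with 5.24% to 5.94% as many on the minor strand. No columns of per-sample values were left out.

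Genes were kept by filterByExpr (minimum count 10), libraries scaled by TMM, and 19393 genes fitted in edgeR 4.0.16 (R 4.3.3) with a quasi-likelihood model of 6 groups with 3 libraries each. The Benjamini-Hochberg adjustment ran over all genes tested in 1 comparison at a time, with a threshold of 0.05. SE were derived from the F statistic and are approximate. CPM are TMM-scaled, and errors are SD over 3 libraries. Counting intervals are exact at 95% and cover counting error only. Symbols were matched for 57754 of 58336 IDs, and coordinates come from GENCODE 29. The fit was also run on simulated counts. Of 50 genes changed 1.25-fold there, the test of the difference between genotypes recovered 58%. Far fewer genes were changed there than passed in the data, so this share does not give the power of the test here. Genes not passing it may still differ.

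Members and lists were chosen with earlier results of these data known, and none of them is independent evidence. Genes named were the 12 highest and 12 lowest fold changes among eligible genes, and their 6 highest and 6 lowest differences between genotypes. Eligible genes were called, had a mean of at least 5 CPM and showed no overlap between groups. Clone, LINC and MIR names, antisense and similar suffixes and pseudogenes were not eligible. Also named were up to 6 tested members of each list with the largest fold changes, all metallothioneins, zinc exporters and YAP/TAZ targets, and LATS1 and LATS2. Not all of them are printed, and a few items are not reported here. ATF3, ATF4, DDIT3, IER3, JUN, MYC, PPP1R15A, PSAT1, SESN2 and XBP1 fall outside this rule and were chosen after their values were seen. Alternatives were DESeq2 1.42.0, other scalings and filters, the major strand alone, a replicate block, the compared libraries alone, and leaving out each library.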

Additional observations from a re-analysis of the deposited data

Results flagged for a closer look

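The values below are differences of the log2 fold change of cadmium over zinc, knockout minus wild type. Each gene is given because edgeR's quasi-likelihood test of this difference passed an adjusted p of 0.05, as it did for 79 of the 121 genes described with values and for 23.6% of all genes. Some of them were named for the size of this difference.

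Among stress genes of the ATF4 arm the difference was 2.29 for DDIT4, 2.10 for CHAC1, 1.72 for STC2, 1.48 for ASNS, 1.19 for SESN2, 0.96 for TRIB3, 0.70 for PSAT1, 0.41 for ATF4, 0.36 for YARS1, 0.30 for DDIT3, -0.47 for ATF3, -0.58 for PPP1R15A and -0.62 for GADD45A. Early genes lay on the negative side, with -3.68 for FOSB, -3.13 for EGR3, -2.46 for NR4A1, -2.14 for EGR2, -1.82 for EGR1, -1.36 for IER3, -1.35 for FOS, -0.996 for ZFP36, -0.88 for BTG2, -0.73 for ARC, -0.65 for MYC and -0.14 for JUN. MAP kinase regulators and EGF ligands had -1.87 for DUSP2, -1.06 for DUSP1, -1.03 for HBEGF, -0.96 for AREG, -0.77 for SPRY4 and -0.39 for ETV5.

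Targets of YAP, TAZ and SRF had -1.58 for CNN1, -1.38 for ANKRD1, -1.19 for THBS1, -1.05 for TAGLN, -0.95 for CCN1, -0.92 for TGFB2, -0.91 for CCN2, -0.51 for AMOTL2, -0.45 for DLC1 and -0.42 for LATS2, and TAOK1 had 0.27. Metal genes had 0.76 for MT1F, 0.76 for SLC30A2, 0.39 for MT1X, -0.37 for SLC30A7, -0.38 for MTF1 and -0.73 for SLC30A3. For chaperones and redox genes the values were -1.42 for HSPA6, -1.36 for CRYAB, -0.74 for HSPA1A, -0.64 for SDF2L1, -0.61 for ABCC2, -0.32 for TXNRD1, 0.12 for XBP1 and 0.80 for SLC40A1. BMP and Notch genes had 1.35 for BMP2, 0.52 for JAG1, -0.56 for SMAD7, -0.58 for DLL1 and -1.24 for ID3.

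RNA processing and ribosome genes had 0.17 for NONO, -0.25 for SRSF7, -0.35 for POLR1B, -0.39 for CLK1 and -0.69 for RRS1. Cell cycle genes had 0.40 for TOP2A, 0.16 for KIF11, -0.26 for CDKN1A, -0.41 for CDC6 and -1.18 for H4C8. The remaining genes had 1.68 for SPACA6, 0.27 for VEGFA, -0.46 for ZNF557, -0.47 for EMILIN2, -0.50 for RNF227, -0.67 for TNFAIP3, -2.01 for ALOXE3 and -2.03 for RNF122. The differences of BMP2, JUN, KIF11, SLC40A1 and XBP1 lost their call under at least 1 alternative that leaves out a library.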

How the results depend on the processing

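No count of all genes called, higher or lower, in the 5 comparisons changed by more than 1.5 times, except that cadmium against water gave 2989 genes higher and 7401 lower with library size alone. The 530 and 717 genes at least 2-fold higher and lower in cadmium than in zinc became 93 and 149 with a filter of at least 5 CPM in 3 libraries. Leaving out 1 library at a time gave 8448 to 8776 genes for cadmium against zinc in the knockout (4140 to 4276 higher, 4301 to 4513 lower) and 3994 to 4661 for the difference between genotypes (1516 to 1878 higher, 2436 to 2783 lower). The same gave 9388 to 9806 in wild type, 9943 to 10215 for zinc against water and 8215 to 8451 for cadmium against water. With a replicate block, 9599 genes were called between cadmium and zinc, 9299 of them shared with the fit without it, and 4923 for the difference. Deviations of cadmium and zinc libraries with the same number correlated at 0.20, 0.042 and 0.26, and those with different numbers at -0.23 to 0.037. Every cadmium library correlated best with its own number, but weakly. Whether the numbers pair the libraries cannot be settled from these values.

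For the genes named, 1641 fold changes recomputed under an alternative kept their direction and side of the threshold, 40 lost the call and 1, CNN1, gained it. DDIT3, not called under any of them, had a log2 fold change of -0.044 to 0.089 when 1 library was left out, with -0.0038, -0.015 and -0.044 without zinc replicate 1, zinc replicate 3 and cadmium replicate 1. LATS1 lost its call with library size alone and without any of zinc replicates 2 and 3 and cadmium replicates 2 and 3. For the difference between genotypes, 1547 values kept their side and 30 lost the call. Of 922 recomputed counts of list members, 64 moved by more than 1.5 times. The causes were not tested. Depth limits the genes with few reads, such as FGF21 and MT1B, whose ratios have wide counting intervals.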
